A study of Mus musculus with 18 samples.

Results

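In mouse embryonic stem cells whose ERK pathway had been switched on by 4-hydroxytamoxifen (4OHT), newly made RNA was compared between 8 h and 2 h of stimulation, in cells in which the Mediator subunit Med24 was supplied. The comparison asks which of the transcriptional changes present at 2 h were reversed, which were kept and which appeared only later. It used 6 of the 18 libraries of the series, chosen by their labels: 3 of cells at 8 h and 3 of cells at 2 h, from clones A, B and C. The table held 25897 genes, of which 14128 passed a filter on low counts and were tested. The 3 libraries of the same cells at 0 h served to sort genes into classes, and the knockout libraries at 8 h and 2 h to test whether the step differed without Med24.

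The cells were the E14tg2a line (129SV background). All 18 libraries came from cells in which Med24 was knocked out and its function replaced by a TET-regulated cDNA for FLAG-Med24, and which carried a cRAF-ErT2-T2A-RTTA cassette. The libraries that the labels call WT, here called rescued, were made from cells kept for several passages in 500 nM doxycycline, and those labelled KO from the same kind of cells kept without it. Cells grew in serum with LIF and 2 µM Chir99021, an inhibitor of the kinase GSK3. For the last 24 h before stimulation the supplements were LIF and 250 nM PD173074, an FGF receptor inhibitor. ERK was then activated through the RAF fusion with 250 nM 4OHT for 8 h or 2 h. Cells labelled 0 h were left without 4OHT. The treatment protocol in the labels describes the 0 h and 2 h cells and not the 8 h cells, whose time is given elsewhere in the labels. The same pretreatment was assumed for the 8 h cells. Ethynyl uridine (5 mM) was present for the last 15 min, and RNA that had taken it up was captured, so that the counts follow recent synthesis rather than the standing pool of RNA. By this design the rescued cells make Med24 from the transgene and not from an intact gene. The labels do not say whether a clone letter marks the same clone at each time, and p-values therefore measure the spread between these libraries.

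ERK is the last kinase of the RAF, MEK and ERK cascade. It enters the nucleus and phosphorylates transcription factors, among them the partners of serum response factor (SRF) at CArG boxes, and immediate early genes such as Fos and Egr1 respond within minutes without new protein synthesis. Their products are mostly transcription factors for a later wave of genes, and the pathway also induces its own inhibitors, among them dual-specificity phosphatases (DUSPs) and Sprouty proteins. In mouse embryonic stem cells ERK signalling is known for driving the exit from naive pluripotency.

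The rescued libraries held 14541145, 7634532 and 8242354 counts at 8 h and 8171389, 8099133 and 9113726 counts at 2 h in clones A, B and C. A count of 3, used as the floor, was worth 0.206 to 0.393 CPM (counts scaled to a common library size) in the 8 h libraries and 0.329 to 0.370 CPM in the 2 h libraries, which covers counting error only. These floor values leave out the TMM factors (1.036 to 1.053 at 8 h, 0.974 to 0.990 at 2 h), which the CPM of genes include. In a principal component analysis of the 9 rescued libraries the first component, with 55.1% of the variance, separated 0 h from the later times. The second, with 34.1%, separated 8 h (scores of 44.8 to 45.9) from 2 h (-45.1 to -44). The 10 embryonic stem cell markers summed to 2190 to 2270 CPM at 8 h and 1810 to 1840 CPM at 2 h. The 8 fibroblast markers, which would show feeder cells, summed to 4.53 to 5.55 CPM at 8 h and 8.17 to 9.32 CPM at 2 h, with 4 and 2 of the 8 at 0. Of the 3 that were tested, 1 was lower at 8 h, Col1a1, with a mean of 0.349 CPM against 6.99 CPM at 2 h. The other 2 were higher, Thy1 at 3.09 against 0.547 CPM and Pdgfrb at 1.43 against 0.687 CPM. The 6 primitive endoderm markers summed to 5.95 to 7.78 CPM at 8 h and 13.6 to 23.6 CPM at 2 h, and the 5 trophectoderm markers to 137 to 159 CPM and 61.0 to 68.7 CPM, with none at 0. In bulk RNA, fewer cells of a type and less RNA per cell cannot be told apart, and the part of these markers in the results was not tested.

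Med24 itself was among the genes that differed between the times. It had 405.3, 407.2 and 399.5 CPM in the 8 h libraries, against 1520, 1775 and 1610 CPM in the 2 h libraries, and 528, 602 and 515 CPM at 0 h. The groups did not overlap, which held for 65.9% of all tested genes. The log2 fold change of 8 h over 2 h was -2.02 ± 0.068 (SE, n = 3 each, adjusted p = 2.15e-21 by edgeR's quasi-likelihood test). In the knockout libraries it averaged 39.3 ± 4.7 CPM at 8 h and 46.5 ± 3.1 CPM at 2 h (SD, n = 3 each), below every rescued library. The counts cannot tell the transgene from the disrupted gene, and the part of this difference in Med24 in the other results was not tested.

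After TMM scaling, most tested genes passed the test between 2 h and 8 h. Of 14128 genes, 8613 passed the test (61.0%), 4342 of them higher at 8 h (30.7%) and 4271 lower (30.2%). A change of over 2-fold was found for 1109 genes higher at 8 h (7.85%) and 923 lower (6.53%). The 3 libraries at 8 h and the 3 at 2 h did not overlap for 9309 genes (65.9%). For genes named as the highest and lowest, and for those named by class other than kept, a lack of overlap was a condition of choice. The median log2 fold change over all tested genes was 0.011, with 5% of genes below -1.17 and 5% above 1.31. Higher genes made up 50.4% of those that passed after TMM scaling, and 61.2% when libraries were scaled by their size alone, which also moved the median to 0.097. With library size alone 3997 genes were higher and 2532 lower, so that most tested genes did not pass.

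**Figure D1:**
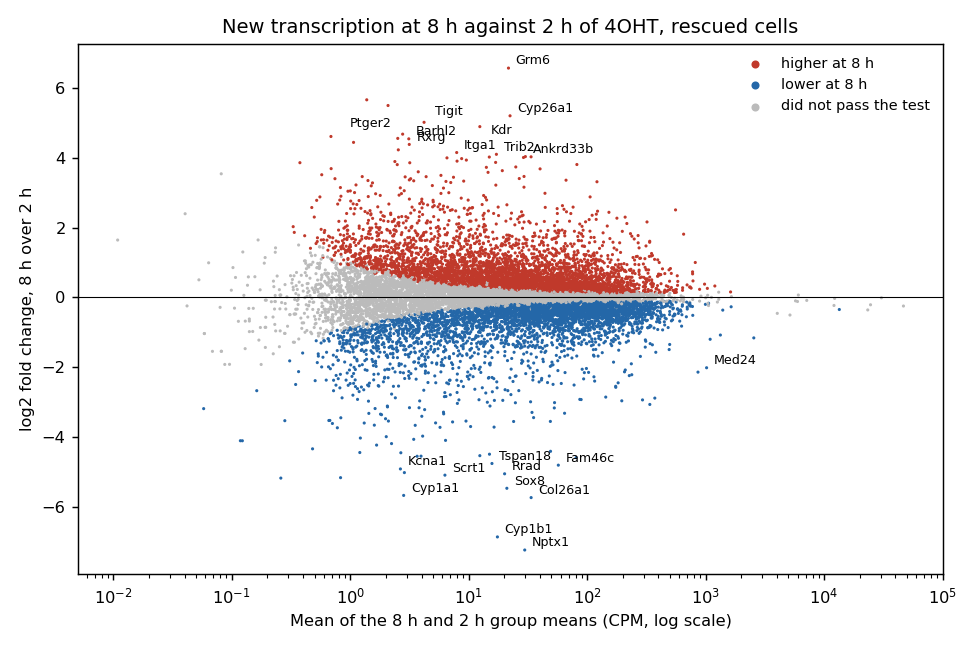
Each point is a tested gene, with its log2 fold change of 8 h over 2 h in rescued cells on the y axis and the mean of the 8 h and 2 h group means in CPM on a log x axis. Red points passed the test as higher at 8 h and blue points as lower, grey points did not pass, and the labelled genes are Med24 and the 10 highest and 10 lowest by the naming rule, from Grm6 at 6.57 to Nptx1 at -7.24.

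By the calls alone, most genes that responded early reversed. Of the 9354 genes called at 2 h against 0 h (66.2% of those tested), 5072 (54.2%) were called in the opposite direction at 8 h against 2 h. Another 2449 (26.2%) kept their 2 h difference, in that they were not called at 8 h against 2 h and were still called the same way at 8 h against 0 h. A further 1344 (14.4%) moved on in the same direction. Newly gained differences, absent from the 2 h calls and present at 8 h against both 2 h and 0 h, were found for 1733 genes (12.3% of those tested). The remaining called genes fell in no class (1438), and 2092 genes were called in no contrast.

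Among the 4574 genes induced at 2 h, 2637 (57.7%) were reversed. Of these, 944 were still above 0 h at 8 h, 1190 were no longer called against 0 h and 503 had dropped below it. Among the 4780 genes repressed at 2 h, 2435 (50.9%) were reversed, 793 of them in part, 1145 to a level not called against 0 h and 497 beyond it. Kept genes numbered 988 induced and 1461 repressed, further moved genes 749 induced and 595 repressed, and newly gained genes 925 induced and 808 repressed. The contrasts that define the classes share the 2 h libraries, so a deviation of those libraries enters both contrasts with opposite sign and adds to the count of reversed genes. A gene that was not called is not shown to be unchanged. When a 2-fold change was also required in each call, the order turned for repressed genes but not for induced ones. Then 445 induced and 390 repressed genes were reversed, 372 and 710 were kept, 108 and 75 moved further and 363 and 230 were newly gained. A reversal of under 2-fold counts as no call here, so a gene that reversed in part can be counted as kept. At that threshold 8.27% of tested genes were higher and 11.6% lower at 2 h against 0 h, and 8.24% and 9.51% at 8 h against 0 h. With library size alone 1249 induced genes were reversed and 540 kept.

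**Figure D2:**
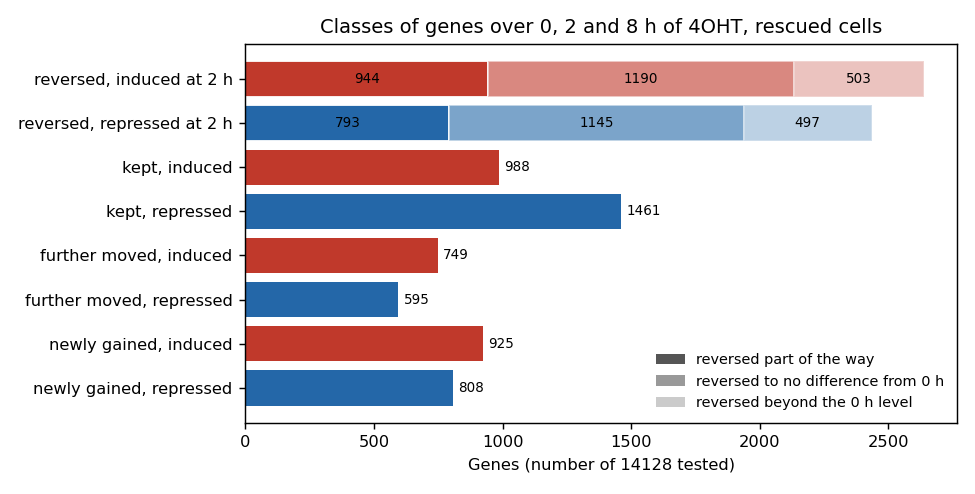
The bars give the number of tested genes in each class over 0, 2 and 8 h of 4OHT, with genes induced at 2 h, or newly at 8 h, in red and repressed genes in blue. The reversed bars are split by where the genes stood at 8 h against 0 h, and with 2637 and 2435 genes they are the longest. When a 2-fold change was also required, kept genes outnumbered reversed ones among repressed genes (710 against 390) and not among induced genes (372 against 445). Kept genes can then include those that reversed by under 2-fold.

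Immediate early genes were mostly reversed. Of 36 listed genes 34 were tested (Egr4 and Nr4a3 fell below the count filter). Of these, 23 were lower at 8 h than at 2 h, 6 were higher and 5 did not pass, with a median log2 fold change of -0.71. Over all tested genes 30.2% were lower and 30.7% higher. All 23 that fell were among the 32 listed genes induced at 2 h, while 57.7% of all genes induced at 2 h were reversed. Shown first are upstream windows of early genes that hold a CArG box, the sequence that SRF binds. They are the mouse RefSeq sequences of build GRCm38.p6 before an annotated start site, with the CArG boxes in capitals, and they were picked because the box can be read in them.
Egr2, chr10:67537416-67537515, plus strand: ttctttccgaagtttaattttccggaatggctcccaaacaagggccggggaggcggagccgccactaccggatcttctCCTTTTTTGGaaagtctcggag
Srf, chr17:46556203-46556272, minus strand: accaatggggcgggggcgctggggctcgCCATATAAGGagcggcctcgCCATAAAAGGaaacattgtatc
Dusp5, chr19:53529035-53529104, plus strand: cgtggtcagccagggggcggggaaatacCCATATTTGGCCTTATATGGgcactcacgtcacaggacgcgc
The box begins 72 bases upstream of the start site in Egr2, where the table lists several start sites and the window of 1 of them is shown. In Srf and Dusp5 the first of the boxes begins 82 bases upstream.

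Windows of 250 bases before and 50 bases after a start site were at hand for 10790 tested genes, and both strands were searched. A CArG box was found for 3 of 24 immediate early genes with a window (12.5%, Egr2, Srf and Zfp36), against 1.58% of all 10790 genes. The EGR site GCGGGGGCG was found for 8 of the 24 (33.3%), against 6.40% of all. Among genes over 2-fold lower at 8 h it was found for 12.6%, and among those over 2-fold higher for 4.86%. The ETS site CCGGAAG was found for 28.5% of kept induced genes, against 18.7% of all genes with a window. It was found for 7.82% of those over 2-fold lower at 8 h and 9.48% of those over 2-fold higher. The AP-1 site TGANTCA was found for 10.8% of genes over 2-fold lower at 8 h, 8.6% of those over 2-fold higher and 6.44% of all. For the CRE TGACGTCA these shares were 2.71%, 1.25% and 3.42%, and for the E-box CACGTG 11.9%, 10.1% and 11.5%. A match describes letters in a window and is not shown to be a bound site.

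Egr2, a zinc finger transcription factor, lies on chromosome 10 at 67535475 to 67542188 (GENCODE, mm10). It had 0.751, 1.39 and 0.841 CPM at 0 h, 23.3, 30.1 and 27.9 CPM at 2 h and 2.88, 2.91 and 3.71 CPM at 8 h. All 8 h libraries lay below all 2 h libraries and above all 0 h libraries, so that the gene came most of the way back. The log2 fold change of 8 h over 2 h was -3.11 ± 0.16 (SE, n = 3 each, adjusted p = 5.61e-17). Fos and Fosb, subunits of the AP-1 transcription factor, fell in the same manner. Fos had 18.3, 20.8 and 22.3 CPM at 8 h, against 144, 163 and 151 CPM at 2 h, and averaged 3.89 ± 0.49 CPM at 0 h (SD, n = 3). Fosb had 1.76, 1.64 and 1.74 CPM at 8 h, against 15.2, 15.3 and 12.5 CPM at 2 h. The groups did not overlap for either gene, and the log2 fold changes were -2.92 ± 0.088 and -3.04 ± 0.21 (SE, n = 3 each, adjusted p = 1.7e-22 and 1.05e-13).

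Egr1, the founding member of its family, was the most transcribed of these genes and the one that stayed highest. Its counts were 45.1, 47.2 and 41.6 CPM at 0 h, 3265, 3825 and 3485 CPM at 2 h and 1534, 1685 and 1508 CPM at 8 h. The 8 h libraries thus lay below every 2 h library and far above every 0 h library, with a log2 fold change of -1.16 ± 0.089 over 2 h (SE, n = 3 each). Egr3, of the same family, was at 0 in every 0 h library. Its 8 h libraries had 32.9, 36.7 and 42.2 CPM and its 2 h libraries 182, 199 and 202 CPM, a 5.27-fold fall. Nab2 and Nab1 encode corepressors that bind EGR proteins. Nab2 averaged 44.8 ± 3.5 CPM at 8 h and 347 ± 33 CPM at 2 h, and Nab1 50.4 ± 3.5 CPM at 8 h and 298 ± 3.6 CPM at 2 h (SD, n = 3 each). Both were thus down 7.80-fold and 5.97-fold between the times, more than Egr1 itself. Arc, a neuronal immediate early gene, had 311, 330 and 314 CPM at 8 h, against 1257, 1559 and 1399 CPM at 2 h.

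Some immediate early genes fell below their unstimulated level. Jund, an AP-1 subunit, averaged 55.8 ± 6.3 CPM at 0 h, 90.1 ± 10 CPM at 2 h and 27.5 ± 1.2 CPM at 8 h (SD, n = 3 each). Btg2, an antiproliferative gene, and Ctgf, a secreted matrix protein, were also in the class reversed beyond the start. Srf, the CArG box factor itself, rose little at 2 h and had 31.6, 29.98 and 29.1 CPM at 8 h, against 40.7, 47.9 and 51.5 CPM at 2 h. That is a log2 fold change of -0.62 ± 0.093 (SE, n = 3 each), and its 8 h level was not called against 0 h.

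Other immediate early genes were kept or went on. Plaur, the receptor of the protease urokinase, had 739, 690 and 670 CPM at 8 h, against 742, 771 and 795 CPM at 2 h, and averaged 22.7 ± 3.4 CPM at 0 h (SD, n = 3). The 8 h and 2 h libraries did not overlap, but the difference did not pass (log2 fold change -0.14 ± 0.064, SE, adjusted p = 0.067), and it did pass in several of the alternative fits. Fosl1, an AP-1 subunit, had 103, 98.8 and 97.2 CPM at 8 h and 84.8, 99.2 and 94.9 CPM at 2 h, ranges that overlap. Nr4a1, Klf6 and Ier5 likewise did not pass, with log2 fold changes of 0.10, 0.06 and -0.02. Myc, a growth-promoting transcription factor, continued to rise, with 92.3, 93.1 and 91.1 CPM at 8 h, against 40.4, 37.7 and 43.1 CPM at 2 h (log2 fold change 1.19 ± 0.077, SE, n = 3 each, adjusted p = 2.41e-14). Zfp36l2, Zfp36l1 and Ier3 moved further as well. Gdf15 and Nr4a2 are listed as immediate early genes but had been repressed at 2 h, and both were higher at 8 h. The call of Ier3 was lost in DESeq2 and with library size alone, and also when clone A (0.29) or C (0.31) at 2 h or clone A (0.34) or B (0.27) at 8 h was left out (log2 fold changes).

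The feedback inhibitors of ERK took both directions. Of 25 tested members 14 were higher at 8 h and 9 lower, with a median log2 fold change of 0.27, against 30.7% and 30.2% of all genes. Of the 14 that were higher, 8 had been induced at 2 h and rose further, 5 had been repressed at 2 h and were reversed, and 1 was newly induced. Over all 14128 tested genes 5.3% were further induced, 2435 were repressed and reversed, and 6.55% were newly induced. The Sprouty genes and several phosphatase genes went on rising while other phosphatase genes fell back.

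Dusp6, a cytoplasmic phosphatase specific for ERK, had 335, 332 and 340 CPM at 8 h, against 156, 145 and 155 CPM at 2 h, with a mean of 35.5 ± 5.1 CPM at 0 h (SD, n = 3). The groups did not overlap and the log2 fold change was 1.14 ± 0.057 (SE, n = 3 each, adjusted p = 4.43e-17). Spry2 and Spry1, which act on receptor signalling upstream of RAF, moved the same way. Spry2 had 357, 371 and 349 CPM at 8 h and 180, 188 and 194 CPM at 2 h. Spry1 had 27.8, 26.7 and 26.1 CPM at 8 h and 10.9, 14.8 and 14.9 CPM at 2 h. Dusp4, a nuclear ERK phosphatase, rose by 0.77 and Il17rd, an inhibitor of FGF signalling also called Sef, by 0.88 on the log2 scale. Spry4 was already near its 8 h level at 2 h, with 1669, 1759 and 1704 CPM at 8 h and 1518, 1561 and 1532 CPM at 2 h. Its log2 fold change of 0.15 ± 0.067 (SE, n = 3 each, adjusted p = 0.0459) was not called when any 1 of the 6 libraries was left out, with the clone letters as a block, or under the other scalings.

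Among the feedback genes that fell, Dusp14 changed most. It had 10.4, 8.47 and 12.8 CPM at 8 h, against 95.8, 96.6 and 92.8 CPM at 2 h, and was reversed most of the way to its 0 h mean of 8.06 ± 0.47 CPM (SD, n = 3). The log2 fold change was -3.17 ± 0.095 (SE, n = 3 each, adjusted p = 1.32e-22). Dusp2, a nuclear phosphatase, had 5.82, 6.96 and 4.64 CPM at 8 h, against 38.0, 39.4 and 33.6 CPM at 2 h. Dusp16, which acts mainly on the stress kinases JNK and p38, had 78.5, 87.8 and 87.5 CPM at 8 h, against 386, 388 and 400 CPM at 2 h, and ended below its 0 h mean of 123 ± 5.7 CPM (SD, n = 3). None of these groups overlapped. Dusp5, a nuclear ERK phosphatase whose window with adjoining CArG boxes is printed with those of Egr2 and Srf, was nearly kept, with 295, 282 and 302 CPM at 8 h and 336, 338 and 346 CPM at 2 h. Its log2 fold change of -0.21 was not called with library size alone, and the same held for Phlda1 at -0.34.

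**Figure D3:**
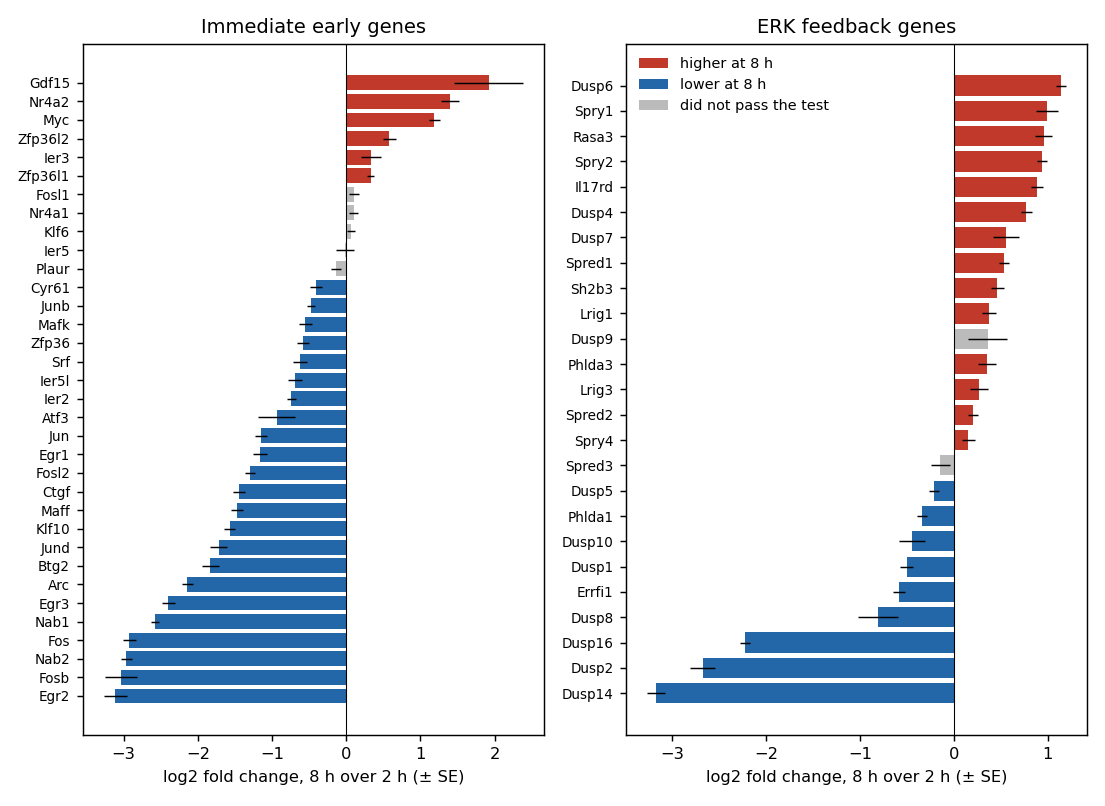
Bars give the log2 fold change of 8 h over 2 h with its standard error for the 34 tested immediate early genes and the 25 tested feedback genes, red where higher at 8 h, blue where lower and grey where the gene did not pass. Most immediate early genes lie to the left of 0, down to -3.11 for Egr2, while the feedback genes spread between -3.17 for Dusp14 and 1.14 for Dusp6.

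In the ERK cascade and its receptors single genes changed in both directions. Of 23 tested cascade genes 12 were lower at 8 h and 5 higher, beside 30.2% and 30.7% of all genes, and with library size alone 6 were lower and 4 higher. Rps6ka3, which encodes the ERK-activated kinase RSK2, had 30.5, 33.8 and 28.5 CPM at 8 h, against 163, 152 and 153 CPM at 2 h, and its paralogue Rps6ka2 had 94.8, 96.9 and 91.3 CPM at 8 h, against 38.3, 34.3 and 35.7 CPM at 2 h. These 2 relatives thus moved in opposite directions, and neither pair of groups overlapped. Mras, a RAS-related GTPase, was repressed at 2 h and came back to 46.7, 47.8 and 47.2 CPM at 8 h, against 9.30, 9.01 and 7.66 CPM at 2 h. Braf fell by 0.95 on the log2 scale. Of the EGF receptor family and its ligands, 7 of 12 tested genes were lower and 3 higher. Erbb3 had 20.9, 20.6 and 24.9 CPM at 8 h, against 60.5, 70.4 and 66.5 CPM at 2 h, and Hbegf, a ligand, 244, 259 and 237 CPM at 8 h, against 420, 437 and 437 CPM at 2 h. The FGF list had 6 of 13 lower and 2 higher. Fgfr4, an FGF receptor, was newly gained, with 17.6, 15.2 and 16.7 CPM at 8 h and 1.63, 1.63 and 1.67 CPM at 2 h (log2 fold change 3.33 ± 0.16, SE, n = 3 each). Of 19 tested ETS factors, the DNA-binding family that includes ERK substrates, 9 were lower and 4 higher. Erf, an ETS repressor, and Elf1 fell by 1.68 and 1.69 on the log2 scale, and Etv4, an ETS activator, rose by 0.79.

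The naive pluripotency genes split between continued loss and partial return. Of 26 tested members 11 were higher at 8 h and 12 lower, beside 30.7% and 30.2% of all genes, with a median log2 fold change of -0.14. Of the 16 that had been repressed at 2 h, 9 fell further, 6 were reversed and 1 was kept. Of all 4780 genes repressed at 2 h, 50.9% were reversed, 595 fell further and 1461 were kept. Nanog, a core factor of the naive state, averaged 330 ± 5.8 CPM at 0 h (SD, n = 3). It had 19.9, 19.6 and 19.8 CPM at 8 h, against 67.9, 87.0 and 79.1 CPM at 2 h. Klf4, a transcription factor that responds to LIF, had 18.9, 24.9 and 21.5 CPM at 8 h, against 72.7, 88.6 and 82.6 CPM at 2 h. Neither pair of groups overlapped, and the log2 fold changes were -1.98 ± 0.10 and -1.93 ± 0.10 (SE, n = 3 each, adjusted p = 5.12e-17 and 1.78e-16). Tbx3 and Prdm14, transcription factors of the naive network, fell by 1.38 and 0.96 on the log2 scale. Tfcp2l1 and Zfp42 were lower by 0.28 and 0.25 and lost their calls with library size alone. Lefty1 and Lefty2, inhibitors of Nodal signalling, were also lower, but these copies are nearly identical in sequence, and because reads may be divided between them each value is uncertain.

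Esrrb and Klf2 belong to the same network and were reversed in part. Esrrb had 568, 562 and 541 CPM at 0 h, 150, 178 and 161 CPM at 2 h and 217, 234 and 221 CPM at 8 h. The 8 h libraries lay above all 2 h libraries yet well below the 0 h libraries, and the log2 fold change of 8 h over 2 h was 0.46 ± 0.061 (SE, n = 3 each, adjusted p = 1.57e-07). Klf2 had 32.5, 42.4 and 32.1 CPM at 8 h, against 22.6, 26.9 and 23.8 CPM at 2 h, and averaged 127 ± 19 CPM at 0 h (SD, n = 3). Gbx2, a homeobox gene, went past its start. It had 17.8, 19.0 and 17.1 CPM at 8 h, against 1.01, 1.13 and 1.33 CPM at 2 h and a mean of 2.86 ± 0.98 CPM at 0 h (SD, n = 3). The log2 fold change of 3.93 ± 0.22 (SE, n = 3 each) was the highest of the list.

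Genes of pluripotency in general were mostly higher. Of 15 tested, 11 were higher at 8 h and 3 lower, beside 30.7% and 30.2% of all genes. Their median was 0.61. All 7 of the 15 that had been repressed at 2 h were reversed, while 50.9% of all genes repressed at 2 h were reversed. Sall4, a zinc finger factor, had 333, 337 and 329 CPM at 8 h, against 170, 178 and 171 CPM at 2 h. Pou5f1 and Sox2, the central factors of pluripotency, rose by 0.37 and 0.78 (log2), and were named after their values were seen. The libraries of the groups did not overlap for Sall4.

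The formative and primed epiblast genes changed by large amounts in both directions. Of 22 tested members 11 were higher at 8 h and 7 lower, beside 30.7% and 30.2% of all genes, with a median of 0.57. Grhl2, a factor of the epithelial programme, had 176, 194 and 190 CPM at 8 h, against 27.0, 23.6 and 25.3 CPM at 2 h. Otx2, an epiblast transcription factor, had 28.6, 33.1 and 27.96 CPM at 8 h, against 6.41, 5.50 and 5.66 CPM at 2 h. Dnmt3b, a de novo DNA methyltransferase, had 173, 168 and 174 CPM at 8 h, against 37.1, 34.3 and 38.4 CPM at 2 h. All of these had been repressed at 2 h and rose beyond their 0 h level, with no overlap between 8 h and 2 h. The log2 fold changes were 2.88 ± 0.068, 2.34 ± 0.12 and 2.23 ± 0.082 (SE, n = 3 each). Cdh2, which encodes N-cadherin, was higher at each later time, averaging 12.8 ± 1.1 CPM at 0 h, 25.7 ± 2.1 CPM at 2 h and 116 ± 4.1 CPM at 8 h (SD, n = 3 each).

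Dnmt3a, the second de novo methyltransferase, ran opposite to Dnmt3b. It had 68.0, 63.1 and 59.6 CPM at 0 h, 304, 300 and 322 CPM at 2 h and 58.3, 51.7 and 58.9 CPM at 8 h. A rise of its transcription at 2 h was thus fully reversed by 8 h, at a log2 fold change of -2.45 ± 0.071 (SE, n = 3 each, adjusted p = 5.56e-23). Fgf8, a ligand of the primitive streak, had 0.327, 0.253 and 0.696 CPM at 8 h, against 3.77, 4.75 and 2.55 CPM at 2 h, and was back at its low 0 h level. Zic2, a zinc finger factor, had 5.42, 5.57 and 3.60 CPM at 8 h, against 29.2, 29.0 and 31.4 CPM at 2 h. Pou3f1, a POU factor of the epiblast, was kept, with 18.1, 16.9 and 16.6 CPM at 8 h and 14.7, 17.3 and 16.5 CPM at 2 h, after a mean of 1.31 ± 0.19 CPM at 0 h (SD, n = 3). Tet1, an enzyme that oxidises methylated cytosine and belongs to the DNA methylation list, had 496, 518 and 501 CPM at 8 h, against 160, 179 and 169 CPM at 2 h and a mean of 775 ± 24 CPM at 0 h (SD, n = 3), a partial return.

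Of 21 tested retinoic acid genes, 7 were higher and 7 lower at 8 h, shares near the 30.7% and 30.2% of all genes, with a median log2 fold change of 0.02. Over 2-fold, 6 were higher and 3 lower, beside 7.85% and 6.53% of all genes, and with library size alone 7 were higher and 4 lower at any size. Cyp26a1 and Cyp26c1 encode enzymes that break retinoic acid down, Aldh1a3 an enzyme that makes it, and Rxrg and Rarg nuclear receptors for retinoids.

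Cyp26a1 (chromosome 19, 37697798 to 37701536, mm10) had 38.4, 45.3 and 46.9 CPM at 8 h, against 0.880, 1.13 and 1.44 CPM at 2 h. The log2 fold change was 5.20 ± 0.24 (SE, n = 3 each, adjusted p = 4.39e-18), a rise of 36.7-fold, while 2 h was not called against 0 h. The bases just upstream of its start site are shown because they hold a direct repeat spaced by 5 bases, the form of site that retinoic acid receptors bind. The repeat is in capitals, on the strand printed it reads as the opposite orientation, and it begins 32 bases upstream of the start site in the RefSeq table of build GRCm38.p6.
Cyp26a1, chr19:37697728-37697792, plus strand: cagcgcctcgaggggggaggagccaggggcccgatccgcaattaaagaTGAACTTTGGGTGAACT
Such a repeat was found for 2 of 17 listed retinoic acid genes with a window (11.8%, Cyp26a1 and Rarb), and for 8 of all 10790 genes (0.0741%). Its part in the rise of Cyp26a1 was not tested.

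Aldh1a3 had been induced at 2 h and moved on, with 0.250, 0.139 and 0.120 CPM at 0 h, 4.02, 3.75 and 3.88 CPM at 2 h and 65.0, 59.8 and 65.2 CPM at 8 h. Each later time lay above every library of the one before, and the log2 fold change of 8 h over 2 h was 4.02 ± 0.13 (SE, n = 3 each, adjusted p = 4.47e-22). Meis1, a homeobox gene that responds to retinoic acid, had 103, 109 and 114 CPM at 8 h, against 19.0, 18.6 and 19.0 CPM at 2 h. Rarg had 169, 158 and 154 CPM at 8 h, against 71.5, 61.9 and 74.5 CPM at 2 h. Rxrg was near the floor at 2 h, with 0.503, 0 and 0.333 CPM, against 6.80, 5.82 and 5.45 CPM at 8 h. The receptor genes Rara and Rxra fell by 0.73 and 0.80 on the log2 scale, and Dhrs3, which reduces retinaldehyde, fell by 1.94. So the receptors of this pathway were not changed in 1 direction. Crabp2, which carries retinoic acid in the cell, and Aldh1a2, which makes it, were lower but lost their calls in DESeq2 and with library size alone. Crabp2 was also not called without clone B at 2 h (log2 fold change -0.50, adjusted p = 0.222) or clone C at 8 h (-0.65). Aldh1a2 was not called without clone A at 2 h (adjusted p = 0.0532) or at 8 h (-0.61, adjusted p = 0.211).

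The largest rises outside these lists were of genes that were nearly silent at 2 h. Grm6, a metabotropic glutamate receptor, had 46.1, 41.9 and 40.7 CPM at 8 h, against 0.503, 0.250 and 0.555 CPM at 2 h, a rise of 94.7-fold (log2 fold change 6.57 ± 0.21, SE, n = 3 each, adjusted p = 3.53e-21). Its 2 h values lie near that of 3 counts (0.329 to 0.370 CPM), so the size of the rise rests on few counts. Kdr, the VEGF receptor that marks early mesoderm, had 25.2, 22.3 and 24.7 CPM at 8 h, against 0.754, 0.751 and 0.888 CPM at 2 h. Neither Grm6 nor Kdr was called at 2 h against 0 h, so that both were gained between the times. Tigit, an immune receptor, had 263 counts at 8 h and 6 at 2 h, a ratio of 34.4 (exact 95% interval 15.6 to 94.5, counting error only). Ptger2, a prostaglandin receptor, had 177 counts against 5, and Barhl2, a homeobox gene, 187 against 6. Itga1 and Trib2, an integrin subunit and a pseudokinase, had first been repressed. Itga1 had 16.2, 12.7 and 16.1 CPM at 8 h, against 1.26, 0.626 and 0.666 CPM at 2 h, and Trib2 33.3, 29.1 and 34.7 CPM at 8 h, against 1.63, 3.003 and 1.11 CPM at 2 h. Ankrd33b, Trib2, Itga1, Gbx2 and Cdh13 led the genes repressed at 2 h that were reversed.

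Most of the largest falls were of genes with a transient peak at 2 h, with Cyp1a1, described after them, an exception. Nptx1, a neuronal pentraxin, had 1.75, 0.696 and 1.56 CPM at 0 h, 52.5, 61.6 and 63.0 CPM at 2 h and 0.327, 0.632 and 0.232 CPM at 8 h. The 8 h values were below the 0 h values, but the closest, 0.632 and 0.696 CPM in clone B, lie near that of 3 counts (0.393 and 0.446 CPM). Their order is thus within counting error. The log2 fold change of 8 h over 2 h was -7.24 ± 0.24 (SE, n = 3 each, adjusted p = 2.45e-21), a fall of 151-fold whose size rests on few counts at 8 h. Col26a1, a collagen, and Sox8, a transcription factor of the SOX family, also peaked at 2 h. Col26a1 had 1.24, 1.26 and 1.16 CPM at 8 h, against 65.4, 67.4 and 65.5 CPM at 2 h, and Sox8 0.850, 0.885 and 1.04 CPM at 8 h, against 40.1, 45.2 and 38.0 CPM at 2 h. Both were no longer called against 0 h. Rrad, a RAS-related GTPase, Scrt1, a neuronal repressor, Kcna1, a potassium channel subunit, Fam46c and Tspan18 fell by 5.05, 5.09, 4.92, 4.81 and 4.76 on the log2 scale.

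A pair of cytochrome P450 genes, targets of the aryl hydrocarbon receptor, fell to almost nothing after 2 h. Cyp1b1 had 18.5, 21.2 and 19.1 CPM at 0 h, 31.2, 37.8 and 35.0 CPM at 2 h and 0.131, 0.380 and 0.464 CPM at 8 h. This was not a return, since the 8 h libraries lay far below the 0 h libraries, and the log2 fold change over 2 h was -6.86 ± 0.22 (SE, n = 3 each, adjusted p = 1.07e-21). Cyp1a1 was not called at 2 h against 0 h, and had 3 counts over the 8 h libraries against 139 over the 2 h libraries. The ratio of 8 h to 2 h was 0.0169 (exact 95% interval 0.00345 to 0.0505, counting error only).

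Kept and further moved genes show what the later time shared with the earlier one. Gpr142, a G protein-coupled receptor, had 27.0, 27.4 and 29.9 CPM at 8 h and 24.6, 26.9 and 25.4 CPM at 2 h, after 0.376, 0.278 and 0 CPM at 0 h. Pla2g7, a phospholipase, had 322, 311 and 322 CPM at 8 h and 309, 284 and 300 CPM at 2 h, after a mean of 5.58 CPM at 0 h. Efemp1, a matrix protein, was kept low, with 0.392, 0.127 and 0.348 CPM at 8 h and 0.503, 0.375 and 0.555 CPM at 2 h, after 5.76, 5.71 and 6.72 CPM at 0 h. At such low counts a further fall was not detectable. Hhip, which binds Hedgehog ligands, moved further down, with 0.261, 0.632 and 0.696 CPM at 8 h, against 6.29, 8.88 and 7.77 CPM at 2 h and a mean of 31.2 ± 2.2 CPM at 0 h (SD, n = 3). Aqp3, a water and glycerol channel, fell likewise, by 3.54 on the log2 scale. Msx2, a homeobox gene, fell only after 2 h, to 1.24, 0.632 and 0.464 CPM at 8 h, against 6.41, 7.63 and 6.77 CPM at 2 h.

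**Figure D4:**
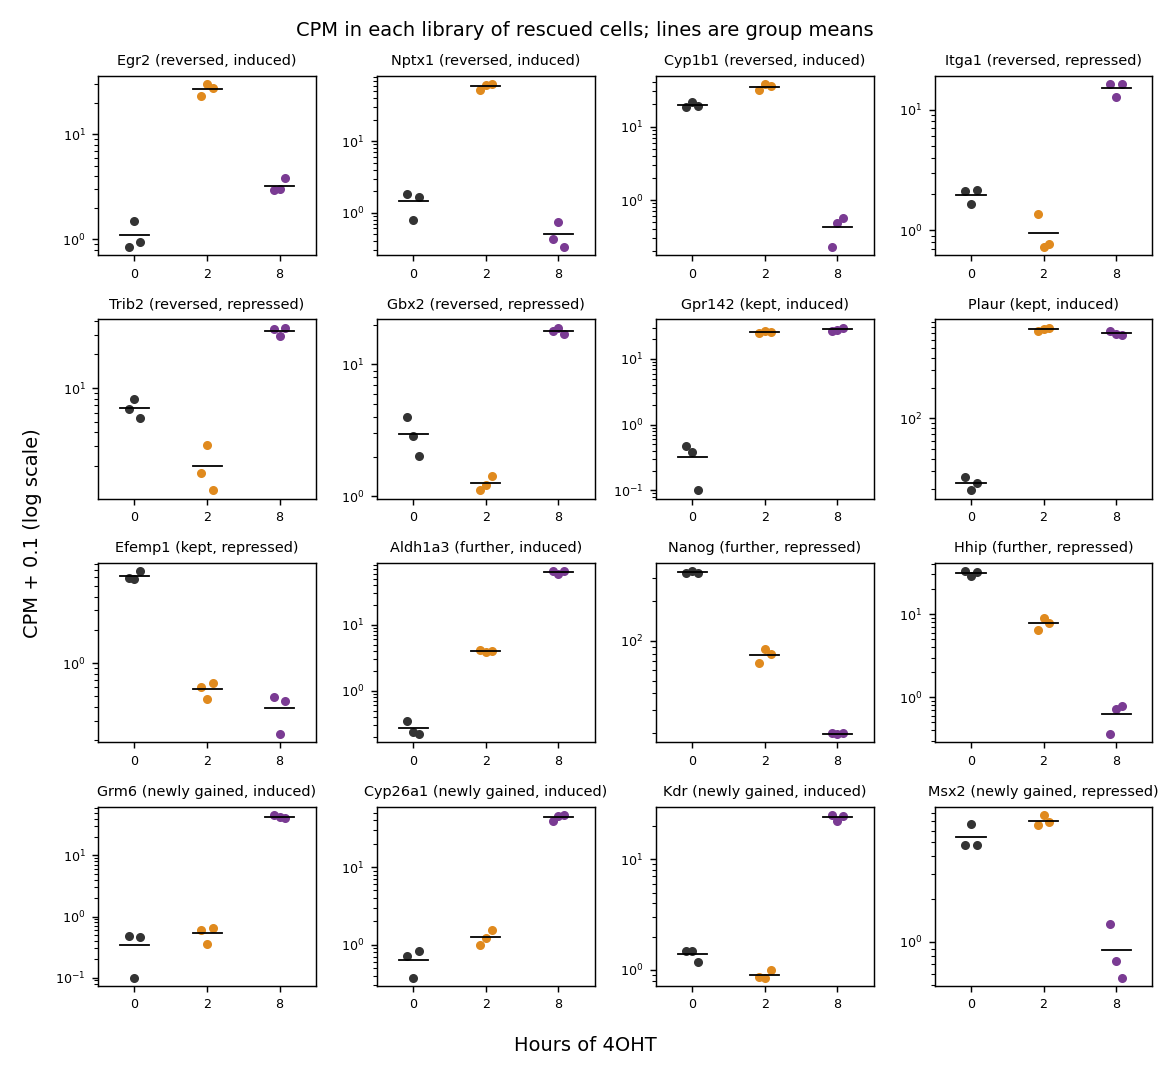
Each panel shows 1 gene in the 3 rescued libraries at 0, 2 and 8 h of 4OHT, as CPM plus 0.1 on a log axis that differs between panels, with a line at each group mean. The panels run through the classes, from the peak of Egr2 and Nptx1 at 2 h, through the plateau of Gpr142 and Plaur and the steady loss of Nanog, to Grm6, Cyp26a1 and Kdr, which rose only by 8 h.

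Of 18 tested mesoderm and gastrulation genes 8 were higher at 8 h and 5 lower, beside 30.7% and 30.2% of all genes. Each of these changed by over 2-fold, while 7.85% of all tested genes were over 2-fold higher and 6.53% over 2-fold lower. Bmp4, a growth factor, had 89.9, 94.9 and 90.2 CPM at 8 h, against 18.2, 19.9 and 22.6 CPM at 2 h. Msx1, a homeobox target of BMP signalling, had 20.2, 19.99 and 26.3 CPM at 8 h, against 3.90, 3.38 and 5.55 CPM at 2 h. Both had been induced at 2 h and rose further, with no overlap. Among Wnt targets 9 of 17 were higher and 7 lower, with a median of 0.96, the highest of the lists with at least 10 tested genes. T and Cdx1, named after their values were seen, are mesodermal transcription factors that Wnt signalling induces. T had 4.97, 6.198 and 5.45 CPM at 8 h, against 1.51, 0.375 and 0.444 CPM at 2 h, and Cdx1 4.51, 4.05 and 5.45 CPM at 8 h, against 0.251, 0.375 and 0.333 CPM at 2 h. Tcf7l1, a Wnt-pathway repressor, fell further, by 0.66 on the log2 scale. The growth medium held the GSK3 inhibitor until 24 h before stimulation, and the part of its removal was not tested. Of the BMP, Nodal and SMAD list 12 of 22 were lower and 5 higher.

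Of 15 tested genes around LIF and STAT3, 7 were lower and 4 higher, beside 30.2% and 30.7% of all genes. The list's median of -0.06 turned to 0.03 with library size alone. The kinase genes Jak1 and Jak2 peaked at 2 h. Jak1 had 31.7, 38.5 and 36.3 CPM at 8 h, against 148, 147 and 144 CPM at 2 h, and Jak2 12.7, 11.6 and 12.5 CPM at 8 h, against 68.4, 62.7 and 67.8 CPM at 2 h. Neither pair of groups overlapped. Bcl3, a regulator of NF-kB, rose by 1.84, Socs2 by 1.29, and Socs3, which inhibits JAK kinases, fell by 1.36 on the log2 scale.

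Genes of the integrated stress response, the programme of the transcription factor ATF4 that serves amino acid supply, were mostly higher at 8 h. Of 23 tested members 17 were higher and 3 lower, with a median log2 fold change of 0.90, and 7 of the 23 were newly gained. Over all tested genes 30.7% were higher, 30.2% lower and 12.3% newly gained. Asns, asparagine synthetase, had 302, 292 and 292 CPM at 8 h, against 66.1, 58.3 and 59.7 CPM at 2 h (log2 fold change 2.27 ± 0.10, SE, n = 3 each, adjusted p = 1.78e-18). Psat1, an enzyme of serine synthesis, had 153, 158 and 150 CPM at 8 h, against 73.0, 69.6 and 73.6 CPM at 2 h. Mthfd2, a mitochondrial folate enzyme, and Gars, glycyl-tRNA synthetase, rose by 1.17 and 0.79 on the log2 scale. Named after their values were seen, Atf4 itself had 170, 175 and 171 CPM at 8 h and 180, 174 and 167 CPM at 2 h and did not pass. Ddit3 and Cebpb, transcription factors of the same response and named likewise, fell by 1.11 and 2.45. Windows upstream of Slc7a11, a cystine transporter, and Chac1, which degrades glutathione, are shown because they hold the C/EBP-ATF site TGATGCAA, in capitals. The motif and both genes were chosen after values were seen.
Slc7a11, chr3:50443634-50443713, minus strand: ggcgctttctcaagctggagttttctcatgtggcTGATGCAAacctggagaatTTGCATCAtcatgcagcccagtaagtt
Chac1, chr2:119351022-119351081, plus strand: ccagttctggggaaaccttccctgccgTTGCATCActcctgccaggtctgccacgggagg
The sites begin 66 and 193 bases upstream of the RefSeq start sites (GRCm38.p6), and capitals reading TTGCATCA hold the site on the other strand. Slc7a11 had 5.16, 4.93 and 3.94 CPM at 8 h, against 1.38, 1.38 and 1.55 CPM at 2 h, and Chac1 7.58, 7.08 and 6.50 CPM at 8 h, against 0.880, 0.876 and 1.22 CPM at 2 h. Neither pair of groups overlapped. The site was found for 5 of 22 listed genes with a window (22.7%), and for 0.732% of all genes with a window.

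Ribosome genes were higher at 8 h more often than lower. Of 39 tested ribosome biogenesis genes 22 were higher at 8 h and 2 lower, with 15 of the 39 further induced, 14 kept induced, 6 newly induced and 2 reversed. Over all tested genes 30.7% were higher and 30.2% lower, with 5.3% further induced, 6.99% kept induced and 6.55% newly induced. Fbl, fibrillarin, had 135, 129 and 126 CPM at 8 h, against 86.7, 88.1 and 89.7 CPM at 2 h. Nop2 and Gnl3, nucleolar proteins, each rose by 0.47 on the log2 scale. Of 78 tested ribosomal protein genes 44 were higher and 1 lower, at a median of 0.19. Of the 78, 25 were further induced, 18 newly induced and 15 kept induced, and reads of their processed copies make single values uncertain. The changes were small, and no member of either list passed 2-fold.

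In other lists more members were lower than higher at 8 h, and for several of them the count depended on the scaling. Over all tested genes 30.2% were lower and 30.7% higher, and with library size alone 2532 of 14128 were lower and 3997 higher. Of all tested genes 32.4% had been induced at 2 h, and 57.7% of those were reversed. All 26 tested splicing factors had been induced at 2 h, and 17 of them were reversed at 8 h, while with library size alone 7 were lower. Srsf9 had 45.4, 47.6 and 46.9 CPM at 8 h, against 75.2, 75.4 and 81.8 CPM at 2 h, and Clk4, a kinase of splicing factors, 110, 107 and 107 CPM at 8 h, against 188, 183 and 192 CPM at 2 h. Of 24 tested P-TEFb and elongation genes 14 were lower and 2 higher, and with library size alone 5 were lower and 2 higher. Aff4, the scaffold of the super elongation complex, had 199, 197 and 210 CPM at 8 h, against 381, 374 and 366 CPM at 2 h. Hexim1, an inhibitor of P-TEFb, fell by 0.87, while Ell2, another elongation factor, rose by 0.68 on the log2 scale. Of 31 tested Mediator genes, 15 of them induced and 7 repressed at 2 h, 14 were lower at 8 h and 5 higher, with Med13 lower by 1.02 and Cdk19 by 1.19 on the log2 scale. With library size alone 4 Mediator genes were lower and 4 higher. Cholesterol synthesis genes had 13 of 23 lower and 2 higher, and those 13 had been induced at 2 h. Hmgcs1, an early enzyme of the pathway, had 92.5, 87.8 and 104 CPM at 8 h, against 175, 192 and 198 CPM at 2 h. Of 22 tested MRTF and SRF cytoskeletal genes 14 were lower and 2 higher, and 12 were reversed after induction. The 2 that rose, Fhl2 and Tes, by 1.54 and 1.68, had already been induced at 2 h.

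Among cell cycle genes, those of DNA replication had 21 of 28 lower and 3 higher, with a median of -0.41. Cdc45, a part of the replicative helicase, had 56.1, 48.3 and 54.0 CPM at 8 h, against 94.4, 96.1 and 100 CPM at 2 h. Pcna, the sliding clamp, had 128, 128 and 126 CPM at 8 h, against 195, 211 and 205 CPM at 2 h. Of 21 tested G1 genes 10 were lower and 6 higher, beside 30.2% and 30.7% of all genes, and with library size alone 6 were lower and 6 higher. Among them were Cdkn1b and Rb1, which restrain the cycle, lower by 1.34 and 1.46, and Cdk6, a cyclin D partner, higher by 1.37 on the log2 scale. Ccnd1, which encodes cyclin D1, had 27.1, 28.3 and 29.2 CPM at 8 h, against 9.18, 11.4 and 9.77 CPM at 2 h, and was back at its 0 h level. Of 22 p53 targets 13 were higher and 4 lower, while Cdkn1a, the cell cycle inhibitor p21, was among the lower, with 61.6, 55.8 and 50.8 CPM at 8 h, against 101.1, 117 and 115 CPM at 2 h.

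**Figure D5:**
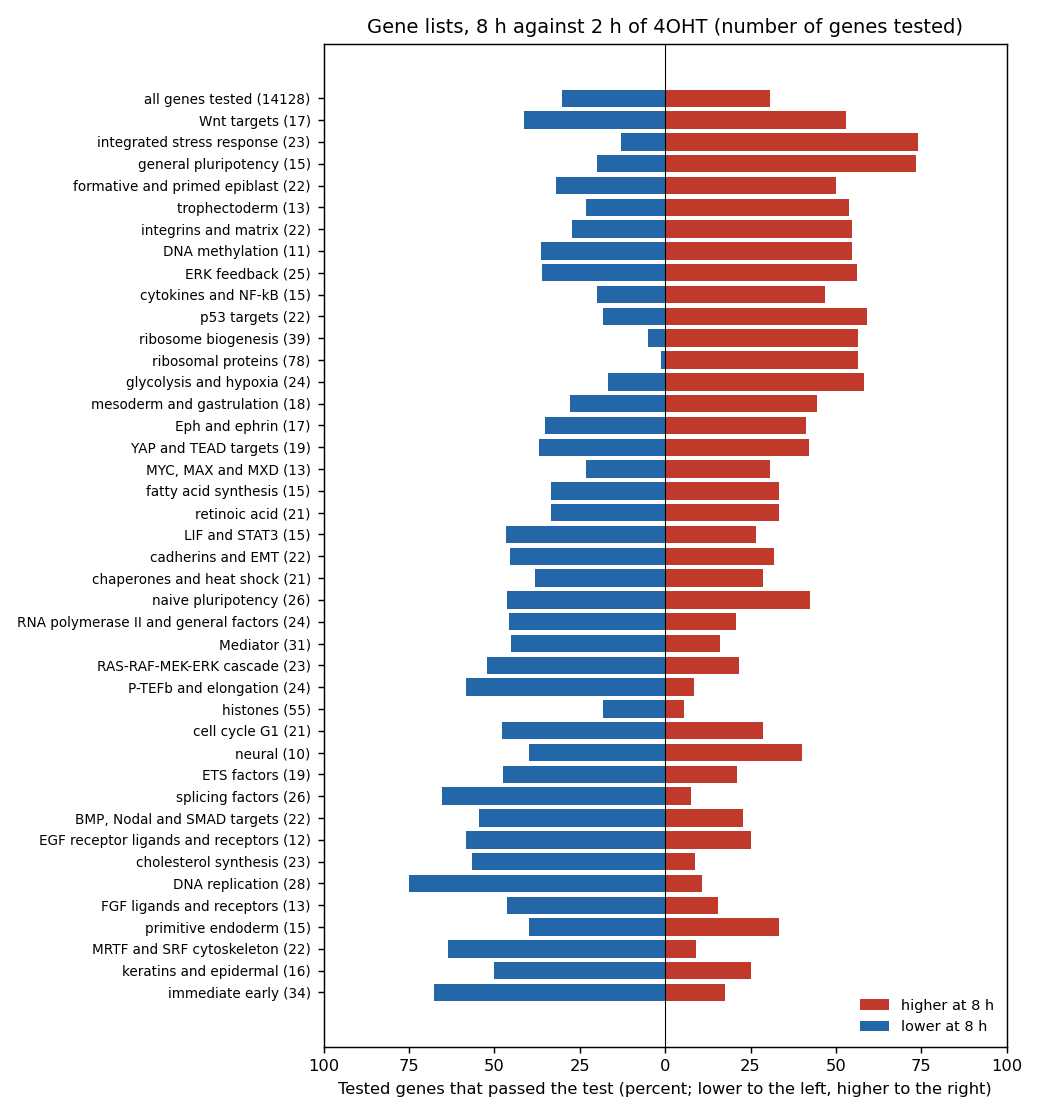
For each gene list with at least 10 tested genes, the bar to the right gives the percentage called higher and the bar to the left the percentage called lower at 8 h against 2 h, ordered by the median log2 fold change, with all genes tested on top. Integrated stress response genes reach far to the right (17 of 23), and immediate early and DNA replication genes far to the left (23 of 34 and 21 of 28).

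The classes also differed in a property that did not define them, the length of the genes. The median length was 26.0 kb over the tested genes, 58.7 kb for genes repressed at 2 h that fell further, 41.8 kb for newly repressed genes and 37.2 kb for genes kept repressed. It was 17.1 kb for genes kept induced and 18.5 kb for newly induced genes. Genes over 100 kb made up 35.0% of the further repressed class and 9.19% of the kept induced class, against 15.8% of all. Reversed genes lay closer to the overall median, at 27.6 kb where induced and 32.0 kb where repressed. Over the step itself, 28.2% of genes under 5 kb were called higher and 17.3% lower, while of genes over 200 kb 28.9% were called higher and 34.2% lower. Length also sets how many counts a gene collects, and its part in the calls was not tested.

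Most of the step was not called different in the knockout cells. Between the knockout and the rescued step, 1271 genes (9.0%) differed, with 619 (4.38%) having a higher and 652 (4.61%) a lower log2 fold change in knockout cells. With library size alone 79 genes had a higher and 292 a lower log2 fold change in knockout cells, at any size of difference. After TMM scaling 117 (0.828%) and 93 (0.658%) differed by over 2-fold. Jun, an AP-1 subunit, differed most in the lower direction. It had 11.3, 11.0 and 13.8 CPM at 8 h and 205, 203 and 212 CPM at 2 h in knockout cells, against 31.7, 32.6 and 29.7 CPM at 8 h and 65.4, 79.6 and 64.3 CPM at 2 h in rescued cells. The early peak was thus higher and the fall longer without Med24, and the log2 difference of the steps was -2.98 ± 0.12 (SE, n = 3 in each of the 4 groups, adjusted p = 4.68e-17). Of the lists, glycolysis and hypoxia had 11 of 24 genes and cholesterol synthesis 10 of 23 with a lower step in knockout cells, and neither had one with a higher step. Nanog fell less in knockout cells, by a difference of 1.01, and Otx2 rose less, by -1.58. The step of Ccnd1 was 0.03 in knockout cells and 1.48 in rescued cells on the log2 scale (adjusted p of the difference 2.09e-06). In 3 of the knockout libraries a few abundant genes took a larger share of the counts than in any rescued library (34.2, 36.4 and 43.9%, against at most 24%). Without those libraries the difference of Jun was -3.06.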

How the data were processed

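Nascent RNA of 18 mouse embryonic stem cell libraries was measured as whole-number read counts per gene, which the authors deposited as 1 table of raw counts. STAR, featureCounts, DESeq and the build mm10 are named in the submitters' processing notes, with versions, strand setting and the counting of introns not given in the sources used here. Counts were tested as deposited with edgeR 4.0.16 (quasi-likelihood, R 4.3.3) after filterByExpr and TMM scaling, in 1 model of 6 group means over all 18 libraries. P-values were two-sided, adjusted by the Benjamini-Hochberg method over 14128 genes and called under 0.05. CPM are counts scaled to a common library size with the TMM factors. The standard error of a log2 fold change is its size divided by the square root of the test's F. On simulated counts for 8 h against 2 h in rescued cells (13834 genes), 93.8% of genes changed by 0.5 on the log2 scale were called, all of those changed by 1 or 2, and 13 of 13634 unchanged genes. The 65, 71 and 64 genes changed by 0.5, 1 and 2 were drawn only from genes with high expected counts. These rates therefore do not cover genes with few counts, and a far smaller share of genes changed than was called in the data.

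Members and gene lists were chosen with earlier results of these data known. Genes were named by rule: the 10 highest and 10 lowest with at least 5 CPM, no overlap of libraries and no predicted gene model, 5 per class and direction, all members of 5 lists, up to 4 members with the smallest p of each other list, and 5 per direction of the difference between knockout and rescued cells. Genes outside it are marked as named after their values were seen. DESeq2 1.42.0, other scalings, no filter, a 2-fold requirement, fewer libraries and a replicate block were alternatives. Gene positions are those of GENCODE for mm10, matched by symbol for 98.7% of the 25897 genes in the table, and upstream sequences those of RefSeq (GRCm38.p6).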

Additional observations from a re-analysis of the deposited data

Results flagged for a closer look

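Beside each gene stands the difference between the 8 h over 2 h log2 fold changes of knockout and rescued cells, which was tested as an interaction in edgeR's model. These 10 genes, 5 in each direction, had the largest differences among those with adjusted p under 0.05 (4.68e-17 for Jun to 0.0276 for Tnfrsf8) and a group mean of at least 5 CPM, so the sizes are a selection.

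Nell2, a secreted neuronal glycoprotein, averaged 11.2 ± 1.0 CPM at 8 h and 9.21 ± 0.30 CPM at 2 h in knockout cells, and 5.28 ± 0.83 CPM at 8 h and 27.3 ± 2.0 CPM at 2 h in rescued cells (SD, n = 3 each), a difference of 2.64. The peak at 2 h that rescued cells reversed was lower in every knockout library. Ccnd2, cyclin D2, differed by 2.08, with means of 8.09 CPM at 8 h and 9.97 CPM at 2 h in knockout cells and of 2.23 CPM and 11.7 CPM in rescued cells. Lefty2 differed by 2.21, but shares sequence with Lefty1. Themis, a T cell signalling protein, differed by 2.58, with 14.4 CPM at 8 h and 0.408 CPM at 2 h in knockout cells and 2.10 CPM and 0.367 CPM in rescued cells. Tnfrsf8, the receptor CD30, differed by 2.38, with 5.17 CPM at 8 h and 0.192 CPM at 2 h in knockout cells and 6.48 CPM and 1.22 CPM in rescued cells. The 2 h levels of Themis in both kinds of cells and of Tnfrsf8 in knockout cells were near or below that of 3 counts in a library, so these fitted differences rest on few counts.

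In the lower direction Jun differed by -2.98. Sec14l5, a lipid-binding protein gene, differed by -2.35, with 1.00 CPM at 8 h and 65.1 CPM at 2 h in knockout cells and 1.10 CPM and 13.5 CPM in rescued cells. For Jun and Sec14l5 the 2 h level was thus higher in knockout cells. Nrp1, a semaphorin and VEGF coreceptor, differed by -2.89, with 1.90 CPM at 8 h and 2.44 CPM at 2 h in knockout cells and 6.91 CPM and 1.17 CPM in rescued cells. Dgkk, a diacylglycerol kinase, differed by -2.49, with 1.59 CPM at 8 h and 0.890 CPM at 2 h in knockout cells and 5.74 CPM and 0.566 CPM in rescued cells. Itih5, an inter-alpha-trypsin inhibitor heavy chain, differed by -2.48, with 3.30 CPM at 8 h and 1.94 CPM at 2 h in knockout cells and 8.89 CPM and 0.974 CPM in rescued cells.

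Without the 3 knockout libraries in which abundant genes took a high share, all 10 were still called, with Tnfrsf8 at 3.62, over 1.5 times its value with them, and Nell2 at 2.76. Themis and Tnfrsf8 were not called with library size alone (adjusted p = 0.10 and 0.0729 in edgeR), and single 2 h libraries decided some calls. Themis was not called without knockout clone C (2.42) or rescued clone A (2.29) or B (2.56) at 2 h. Tnfrsf8 was not called without knockout clone B (2.19) or C (1.74) or rescued clone B (2.03), and Dgkk not without knockout clone C (-2.04).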

How the results depend on the processing

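With a 2-fold change required in each call, the class counts (induced, then repressed) were 445 and 390 reversed, 372 and 710 kept, 108 and 75 further moved and 363 and 230 newly gained. The requirement removes calls, and it can also move a gene that reversed by under 2-fold into the kept class. With library size alone, 2532 genes were called lower, 1249 reversed and 540 kept among induced genes, 349 and 345 further moved, and 79 higher and 292 lower for the difference between knockout and rescued cells; the cause was not tested.

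Leaving out 1 library gave 3870 to 4098 genes higher and 3928 to 4091 lower, 1098 to 1147 and 918 to 975 past 2-fold, 2470 to 2625 and 2191 to 2327 reversed, 868 to 1102 and 1359 to 1558 kept, 618 to 702 and 480 to 576 further moved, 802 to 965 and 687 to 842 newly gained, and 468 to 833 and 499 to 726 for the difference. DESeq2's Wald test called 3840 higher and 4009 lower.

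The clone letters did not pair the libraries: same-letter deviations correlated at -0.021 to 0.083 over 9 pairs, and the closest match was of the same letter for 4 of 9 libraries. With the replicate block 4339 genes were higher and 4255 lower, and among named genes only Spry4 changed its call. Of 4828 values of the 311 named genes under an alternative, 4759 kept direction and side of the threshold, 47 lost the call, 22 gained it and none turned. Besides Spry4, the genes Ier3, Sox3, Crabp2, Aldh1a2, Lrig3 and Sox15 lost the call when single rescued libraries were left out, and Cdh1, Dusp5, Dusp10, Phlda1, Rdh10, Tfcp2l1 and Zfp42 with library size alone.

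A count of 3 was worth 0.206 to 0.448 CPM over the 18 libraries before the TMM factors, and a change between levels near it was not detectable. With the factors, which ran from 0.7135 to 1.143, its value is higher in libraries with a factor below 1. A gene not called is not shown to be unchanged.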
